A study of Mus musculus with 18 samples.

Results

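A group of 8 genes that the androgen receptor works with or regulates in the luminal epithelium of the prostate was followed through the TRAMP mouse lines with and without changes in Elac2. They are Foxa1, Fkbp5, Tmprss2, Srd5a2, Steap4, Klk1, Acpp and Hpgd. They were chosen by symbol, as the rows of the normalized count tables whose Ensembl gene ID maps to these names, and make up 8 of 55469 gene rows. The receptor's own gene is not among them. By limma with every library weighted alike, none of the 8 genes passed the test in either Elac2 line at either age. Klk1 was tested only in KO-TRAMP at 30 weeks, and limma called at most 0.213% of all genes in a comparison. DESeq2 called Hpgd in KO-TRAMP at both ages, with 0.526% of all genes called at 10 weeks and 4.77% at 30 weeks. On the same reads edgeR called none of the 8 genes. Hpgd, the enzyme that inactivates prostaglandins, differed most between the ages: all 3 KO-TRAMP libraries lay above WT-TRAMP at 10 weeks and all 3 lay below WT-TRAMP at 30 weeks. Seminal vesicle transcripts took 0.0472% and 1.42% of the reads of 2 of these 10-week KO-TRAMP libraries. They took 3.74% and 1.63% in 2 of the 30-week WT-TRAMP libraries. Without these 4 libraries the log2 difference of Hpgd between the ages was -1.55 instead of -2.32, and the part of seminal vesicle tissue was not tested. Foxa1 and Fkbp5 lay below WT-TRAMP in 2 of the 3 KO-TRAMP libraries at 30 weeks, the same 2 libraries in which neuroendocrine genes were high. Srd5a2 lay below WT-TRAMP in all 3 and was lowest in those 2. Among the 30-week WT-TRAMP libraries Srd5a2 was instead highest in library 10, which held the most neuroendocrine RNA, while Foxa1 and Fkbp5 were lowest there. The part of neuroendocrine cells in these values was not tested. Of the 2 KO-TRAMP libraries with high neuroendocrine genes, library 18 lay between the other KO-TRAMP libraries of its age for 99.2% of 840 genes at least 4-fold apart in them. Whether it is an observation independent of them was not tested.

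RNA-seq was made from the ventral and lateral lobes of the prostate, with 18 libraries in all, 3 mice per group, from males on a C56NL/6N background. Every mouse carried 1 copy of the TRAMP transgene, which expresses the SV40 T antigens in prostate epithelium from the probasin (Pb) promoter. WT-TRAMP mice had wild-type Elac2, KO-TRAMP mice (ELAC2-/-) had lost it in the prostate through Pb-Cre, which removes exon 8, and A537T-TRAMP mice carried the A537T protein change of ELAC2 on both copies in the whole body. Each line was sampled at 10 and at 30 weeks of age, and the comparisons ask how each Elac2 change alters gene levels at that age. The probasin promoter is itself driven by androgens, so the transgene and the Cre both depend on the pathway to which these genes belong. The mice of the study were age- and litter-matched males. The libraries are called here by the numbers in the column headers. WT-TRAMP mice gave libraries 1 to 3 at 10 weeks and 10 to 12 at 30 weeks. KO-TRAMP mice gave 7 to 9 and 16 to 18, and A537T-TRAMP mice 4 to 6 and 13 to 15.

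Androgens enter luminal cells, where testosterone is reduced to the stronger hormone dihydrotestosterone. The hormone releases the androgen receptor from its chaperones, and the receptor moves to the nucleus and binds enhancers that pioneer factors such as FOXA1 have opened. Its targets include secreted enzymes, membrane proteases and proteins that feed back on the receptor. Luminal cells depend on this programme for their differentiated state, and neuroendocrine tumours of the prostate lose much of it.

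Several libraries stood apart before any comparison was made. Depth was between 9380174 and 14830104 recovered reads. Elac2 itself did not separate the groups: its normalized count ranged from 254 to 301 in KO-TRAMP and 289 to 359 in WT-TRAMP at 10 weeks, and from 249 to 267 and 251 to 319.6 at 30 weeks, so it does not check the labels. Of the epithelial markers Epcam, Krt8, Krt18, Cdh1 and Cldn7, none was at 0 in any library. Neuroendocrine genes (the sum of Chga, Chgb, Syp, Insm1 and Scg2) reached 10929 and 6777 normalized counts in libraries 17 and 18, against 4.12 in library 16 of the same group and 895, 3.84 and 443 in the 3 WT-TRAMP libraries of that age. The other 12 libraries held between 1.84 and 185. Transcripts of seminal vesicle secretory proteins (Svs2, Svs3a, Svs3b, Svs4, Svs5 and Svs6) made up 7.72% of the reads of library 5, 4.74% of 13, 3.74% of 10, 2.28% of 15, 1.63% of 12, 1.42% of 9 and 1.1% of 6, and under 1% in the other 11.

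At 30 weeks each group also held 1 library that lay between the other 2. Among genes with at least 20 CPM (recovered reads scaled to library depth) in the higher of those 2 and at least 4-fold apart, library 18 lay between 16 and 17 for 99.2% of 840 genes, library 12 between 10 and 11 for 98.2% of 222 genes and library 15 between 13 and 14 for 92.2% of 102 genes. On a linear scale, library 18 lay at a median of 39.7% of the way from 16 to 17 (quartiles 35.1% and 44.2%), and library 12 at 43% of the way from 10 to 11 (37.3% and 48.4%). The share was between 2.48% and 88.2% in the 15 other libraries. Of the 8 genes described here, 7 fell between in library 18, 6 in library 12 and 5 in library 15. Why these libraries lie between the others was not tested, and the 30-week log2 fold changes of the 7 genes other than Klk1 are given with and without them.

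**Figure D1:**
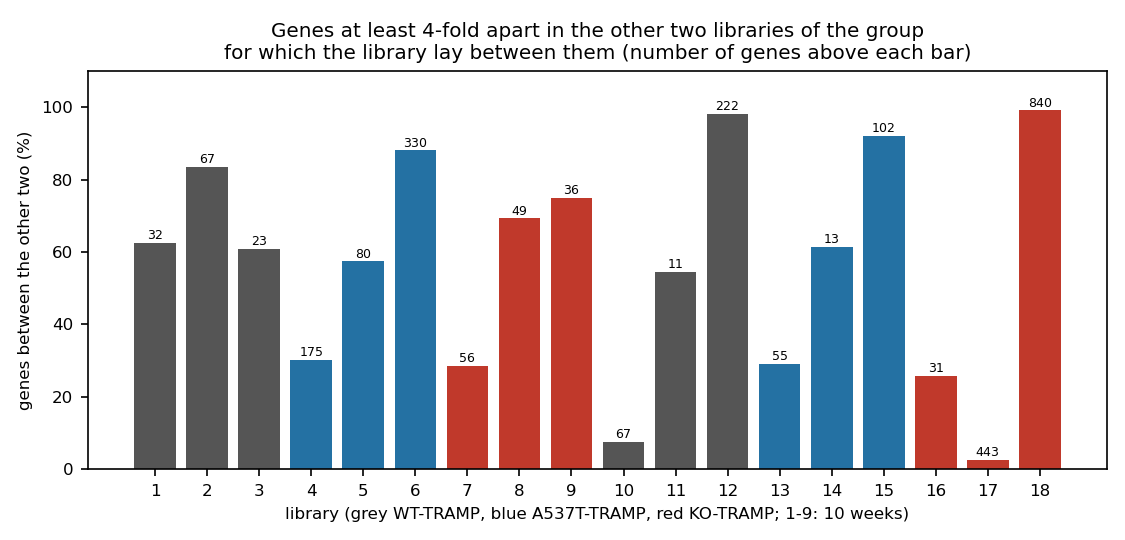
For each of the 18 libraries (horizontal axis), the bar gives the percentage of genes, among those at least 4-fold apart in the other 2 libraries of its group, for which the library lay between them; the number of genes stands above each bar. Libraries 12, 15 and 18, 1 in each 30-week group, have the 3 highest bars, at 98.2%, 92.2% and 99.2%.

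Scaled to exon length and library depth (RPKM), the 8 genes spanned a wide range of levels over the 18 libraries. Foxa1 was highest with a median of 61.3 RPKM (range 24.1 to 95.4), followed by Fkbp5 at 23.7 (8.78 to 28.6) and Tmprss2 at 16.8 (10.7 to 21.8). Hpgd had a median of 14.8 RPKM and, as a ratio of highest to lowest, the widest range of the 7 genes other than Klk1, from 3.72 to 71.4. Srd5a2 followed at 4.45 (1.3 to 6.3), Steap4 at 3.81 (2.41 to 9.83) and Acpp at 1.14 (0.455 to 2.4). Klk1 was close to the limit of detection, with a median of 0.085 RPKM and a highest value of 2.44. In this order the ranges of neighbours overlapped except those of Steap4 and Acpp. Klk1 shares 40.5% of its 31-base words with other genes, most of them with its kallikrein neighbour Klk1b5, so its reads are uncertain. Srd5a2 shares 7.37% with CT025731.1, a transcript that overlaps it on the same strand, and the other 6 genes share less than 2%.

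The promoters of the 3 genes with the highest levels are shown to give the sequence around their start sites. Each window holds the bases before the RefSeq start, 250 long, or 240 for Foxa1, where the 10 bases nearest the start lie in an annotated UTR and are left out. The Foxa1 and Fkbp5 starts lie inside the gene span of the GENCODE annotation, which has transcripts that start further upstream. Capitals mark a GC box (GGGCGG or its reverse complement CCGCCC) or a forkhead motif (TGTTTAC or its reverse complement GTAAACA), and the Tmprss2 window holds neither.

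Foxa1 (GRCm38.p6, chr12:57546122-57546361, minus strand): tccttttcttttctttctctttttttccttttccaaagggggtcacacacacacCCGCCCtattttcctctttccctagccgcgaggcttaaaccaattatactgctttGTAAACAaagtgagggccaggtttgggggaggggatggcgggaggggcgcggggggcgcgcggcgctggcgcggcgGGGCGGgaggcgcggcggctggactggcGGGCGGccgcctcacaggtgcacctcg

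Fkbp5 (GRCm38.p6, chr17:28486150-28486399, minus strand): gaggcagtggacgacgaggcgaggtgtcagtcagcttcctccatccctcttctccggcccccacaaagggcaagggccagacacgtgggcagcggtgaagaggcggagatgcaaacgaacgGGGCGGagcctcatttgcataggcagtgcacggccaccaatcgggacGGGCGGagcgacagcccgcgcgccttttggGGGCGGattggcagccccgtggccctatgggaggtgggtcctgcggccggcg

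Tmprss2 (GRCm38.p6, chr16:97611196-97611445, minus strand): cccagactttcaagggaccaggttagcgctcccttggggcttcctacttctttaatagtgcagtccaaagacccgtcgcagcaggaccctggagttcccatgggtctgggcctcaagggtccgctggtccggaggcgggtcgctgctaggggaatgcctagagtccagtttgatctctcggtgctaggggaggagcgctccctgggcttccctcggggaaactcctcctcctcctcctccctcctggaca

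Windows of all 8 genes were matched. The forkhead motif occurred in 1 of the 8, that of Foxa1 itself, 141 bases before the start, and in 3.17% of all 32851 promoter windows on either strand. The GC box occurred in 4 of the 8 (Foxa1, Fkbp5, Srd5a2 and Hpgd) and in 32.7% of all windows. The androgen receptor half-site (TGTTCT or AGAACA) occurred in none of the 8 and in 16.1% of all windows, and the palindrome of AGAACA and TGTTCT with 3 free bases between them in none of the 8 and in 0.00913% of all windows. These letters were searched in 250 bases only, and a match or its absence says nothing about binding.

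**Figure D2:**
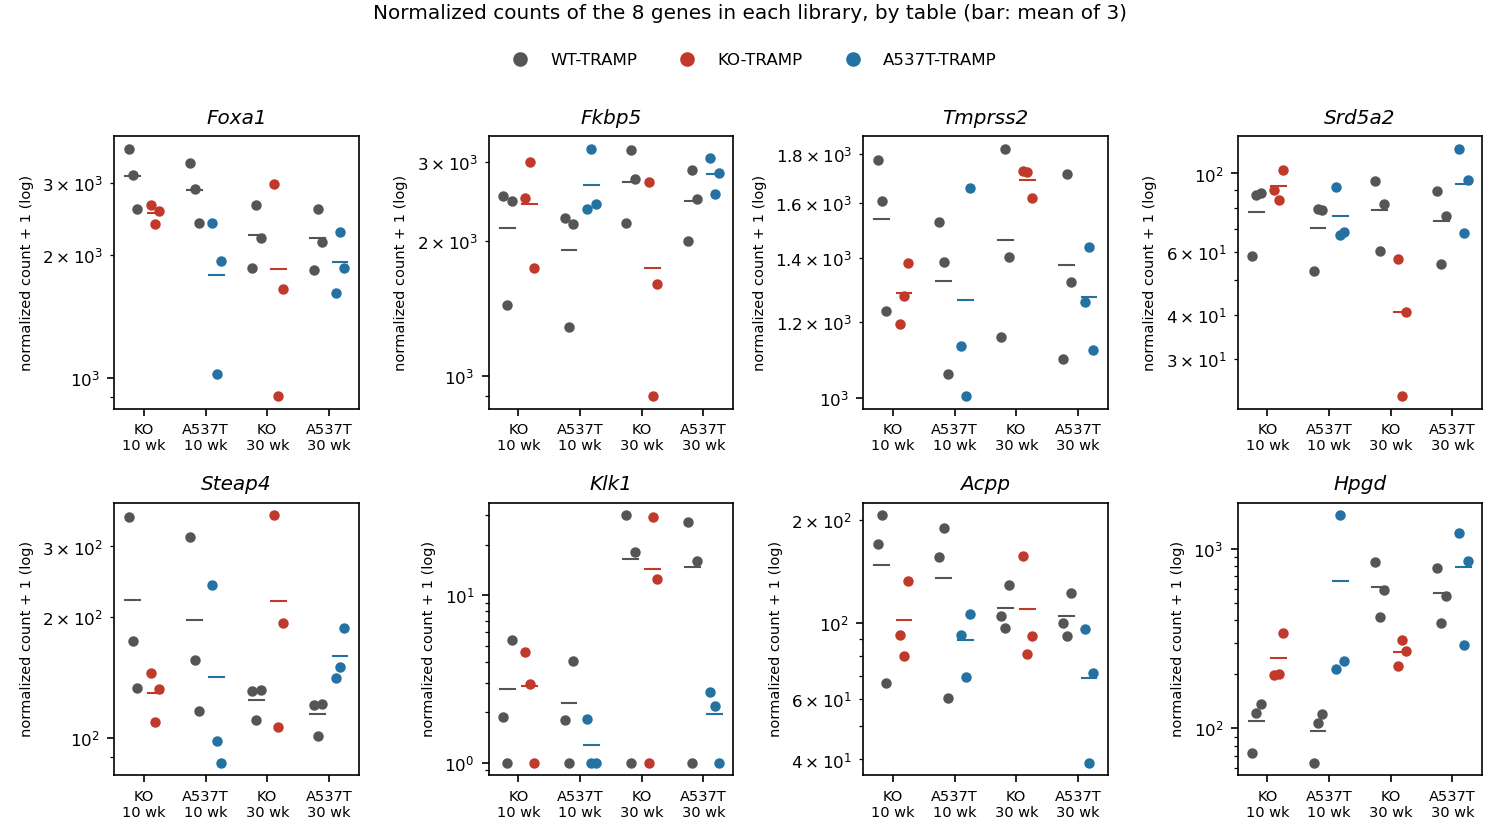
Normalized counts plus 1 on a log axis for the 8 genes, with 1 point per library and a bar at the mean of 3, for each line and its WT-TRAMP group in the 4 tables. Hpgd in KO-TRAMP lies above WT-TRAMP at 10 weeks and below it at 30 weeks, and Foxa1, Fkbp5 and Srd5a2 spread widely in KO-TRAMP at 30 weeks.

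Foxa1 (ENSMUSG00000035451.7, chromosome 12, 57540628 to 57546916, minus strand) encodes the forkhead pioneer factor that opens chromatin for the androgen receptor. At 10 weeks its normalized count was 3634, 3129 and 2594 in the WT-TRAMP libraries, against 2654, 2382 and 2555 in those of KO-TRAMP. The KO-TRAMP libraries clustered at the low end of the WT-TRAMP range and overlapped it, and the log2 fold change was -0.29 (adjusted p 0.743 by limma, SE 0.13). In the other table of that age WT-TRAMP held 3363, 2900.5 and 2391, and A537T-TRAMP libraries 4 to 6 held 2389, 1023 and 1929.7. All 3 A537T-TRAMP libraries were below WT-TRAMP, library 4 by less than 0.1% and library 5 by the most, and the log2 fold change was -0.77 (adjusted p 0.6 by limma, SE 0.31). Library 5 is also the one with the most seminal vesicle RNA, and without libraries 5 and 6 the log2 fold change was -0.26. The sum of the 5 epithelial genes was also lower in all 3 A537T-TRAMP libraries, at 14048 to 21979 against 22743 to 24829.8 in WT-TRAMP. Taken singly, only Cdh1 was below WT-TRAMP in all 3, and in library 4 Epcam, Krt8, Krt18 and Cldn7 lay inside the WT-TRAMP range. The sum of 6 smooth muscle genes was higher (9891 to 27179.8 against 3907 to 6578). Relative to the mean log2 level of the epithelial genes Foxa1 differed by -0.41 and the groups overlapped (exact two-sided permutation p = 0.2). The part of the tissue makeup in the Foxa1 values was not tested. At 30 weeks Foxa1 was 1859.8, 2654 and 2199.9 in WT-TRAMP and 2986, 900.2 and 1652 in KO-TRAMP libraries 16 to 18. Library 16 lay above all WT-TRAMP libraries while 17 and 18 lay below them, so the mean difference of -0.43 (adjusted p 0.615 by limma, SE 0.43) combined opposite directions. Without library 17 it was 0.0044, and without libraries 17 and 18 it was 0.43. The 30-week A537T-TRAMP libraries held Foxa1 at 1615, 2273 and 1856 against 1833, 2594 and 2152, with overlapping groups and a log2 fold change of -0.20 (adjusted p 0.819 by limma, SE 0.17).

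Srd5a2 (ENSMUSG00000038541.8, chromosome 17, 74016955 to 74047916, minus strand) encodes the type 2 steroid 5-alpha-reductase, which converts testosterone to dihydrotestosterone. Its normalized count at 10 weeks was 57.7, 86.2 and 87 in WT-TRAMP and 89, 83.2 and 101 in KO-TRAMP. In the A537T-TRAMP table it was 52.2, 78.3 and 77.8 in WT-TRAMP and 90.3, 66.3 and 67.6 in A537T-TRAMP. The groups overlapped in both, with log2 fold changes of 0.26 (adjusted p 0.87 by limma, SE 0.22) and 0.11 (adjusted p 0.891 by limma, SE 0.26). At 30 weeks it was 94, 59.5 and 80.9 in WT-TRAMP and 56.6, 22.6 and 39.7 in KO-TRAMP. All 3 KO-TRAMP libraries were lower than WT-TRAMP, library 17 most and library 16 only just, and the mean was 39.6 ± 17 against 78.1 ± 17.4 (SD, n = 3). The log2 fold change was -1.03 (adjusted p 0.362 by limma, SE 0.39), and -1.04 without libraries 12 and 18 and -0.43 without libraries 17 and 18. The 30-week A537T-TRAMP libraries held 116, 66.8 and 94.7 against 88.5, 54.7 and 74.7 (overlapping, log2 0.34, SE 0.28, adjusted p 0.808 by limma).

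Fkbp5 (ENSMUSG00000024222.17, chromosome 17, 28399094 to 28517527, minus strand) encodes an immunophilin cochaperone of steroid receptors that androgens and glucocorticoids both induce. At 10 weeks it was 2519.9, 1437 and 2452 in WT-TRAMP and 2490.4, 2994 and 1735 in KO-TRAMP. Each group held 1 low library, 2 and 9, and the log2 fold change was 0.18 (adjusted p 0.928 by limma, SE 0.26), which became -0.083 without library 2. A537T-TRAMP had 2354, 3203 and 2409 against 2245, 1283 and 2176, so that all 3 libraries lay above WT-TRAMP, with a log2 fold change of 0.51 (adjusted p 0.6 by limma, SE 0.24). At 30 weeks the WT-TRAMP libraries held 2191, 3182 and 2740.2 and the KO-TRAMP libraries 2706, 899 and 1598. Library 16 lay inside the WT-TRAMP range and libraries 17 and 18 below it, giving -0.77 (adjusted p 0.414 by limma, SE 0.40). The call depended on library 16: without it the log2 fold change was -1.16 with a limma adjusted p of 0.0443, where 18.1% of all genes were called, while with library 16 alone, without 17 and 18, it was 0.017. In A537T-TRAMP at 30 weeks Fkbp5 was 3062, 2539.9 and 2824 against 1995, 2875 and 2477 (overlapping, log2 0.21, SE 0.15, adjusted p 0.788 by limma).

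Tmprss2 (ENSMUSG00000000385.8, chromosome 16, 97564682 to 97611195, minus strand) encodes a membrane serine protease of luminal cells and is one of the best known androgen receptor targets. At 10 weeks it was 1774, 1608 and 1232 in WT-TRAMP and 1193, 1279 and 1385 in KO-TRAMP, and 1528, 1387 and 1057 against 1132, 1002 and 1658 in the A537T-TRAMP table. Both pairs of groups overlapped, with log2 fold changes of -0.24 (adjusted p 0.802 by limma, SE 0.14) and -0.084 (adjusted p 0.909 by limma, SE 0.23). At 30 weeks WT-TRAMP held 1157, 1823 and 1403 and KO-TRAMP 1729.5, 1724 and 1618. The KO-TRAMP libraries were within 7% of each other, including the 2 with neuroendocrine genes in which Foxa1, Fkbp5 and Srd5a2 were low, and all lay inside the WT-TRAMP range (log2 0.23, SE 0.17, adjusted p 0.52 by limma). The direction turned to -0.11 against WT-TRAMP library 11 alone. A537T-TRAMP at 30 weeks had 1258, 1439 and 1122 against 1097, 1716 and 1321 (overlapping, log2 -0.097, SE 0.18, adjusted p 0.933 by limma).

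Steap4 (ENSMUSG00000012428.9, chromosome 5, 7960457 to 7982213, plus strand) encodes a metalloreductase of iron and copper uptake that responds to androgens and to inflammation. At 10 weeks it was 355, 174 and 132 in WT-TRAMP and 145, 109 and 131 in KO-TRAMP, and 316, 155 and 116 against 240.1, 97.3 and 86 in the A537T-TRAMP table. WT-TRAMP library 1 was more than 2-fold above libraries 2 and 3, the groups overlapped, and the log2 fold changes were -0.66 (adjusted p 0.767 by limma, SE 0.34) and -0.50 (adjusted p 0.731 by limma, SE 0.49). Library 4, the A537T-TRAMP library with the least seminal vesicle RNA, was higher than 5 and 6, and without libraries 5 and 6 the value turned to 0.42. At 30 weeks Steap4 was 129.8, 110.4 and 131 in WT-TRAMP and 358, 106 and 192 in KO-TRAMP. Library 16, the KO-TRAMP library without neuroendocrine genes, was the highest and library 17 was just below WT-TRAMP (log2 0.65, SE 0.43, adjusted p 0.483 by limma). The value was 1.53 without 17 and 18 and 0.21 without 16. The 30-week A537T-TRAMP libraries held 140.1, 149 and 187 against 120.1, 100.4 and 121. All 3 A537T-TRAMP libraries were above WT-TRAMP, with a mean of 159 ± 25.1 against 114 ± 11.5 (SD, n = 3) and a log2 fold change of 0.47 (adjusted p 0.682 by limma, SE 0.17), and 0.39 without libraries 12 and 15.

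Acpp (ENSMUSG00000032561.15, chromosome 9, 104288251 to 104337748, minus strand) encodes prostatic acid phosphatase, an enzyme that luminal cells secrete. At 10 weeks it was 169.6, 206 and 66.1 in WT-TRAMP and 91.7, 79.3 and 132 in KO-TRAMP, and 155, 189 and 59.6 against 91.2, 68.5 and 105 in the A537T-TRAMP table. WT-TRAMP library 3 was the lowest of the 9 libraries of this age, so both pairs overlapped (log2 -0.42, SE 0.41, adjusted p 0.887 by limma for KO-TRAMP, and log2 -0.47, SE 0.43, adjusted p 0.716 by limma for A537T-TRAMP). At 30 weeks it was 104, 96 and 129 in WT-TRAMP and 156, 80.2 and 90.9 in KO-TRAMP (log2 -0.057, SE 0.30, adjusted p 0.927 by limma). A537T-TRAMP at 30 weeks had 95, 38.2 and 70.8 against 99.1, 90.6 and 122, where library 14 was lowest and library 13 overlapped WT-TRAMP (log2 -0.69, SE 0.34, adjusted p 0.716 by limma). Leaving out library 12, 17 or 18 turned the small KO-TRAMP difference at 30 weeks positive, to at most 0.13.

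Klk1 (ENSMUSG00000063903.5, chromosome 7, 44225360 to 44229618, plus strand) encodes tissue kallikrein, a secreted serine protease of the family to which human prostate-specific antigen belongs. At 10 weeks it was 0.874, 0 and 4.4 in WT-TRAMP and 3.6, 1.96 and 0 in KO-TRAMP, and 0.814, 0 and 0 in A537T-TRAMP. The 30-week libraries held 29.1, 0 and 17.1 in WT-TRAMP, 0, 28.4 and 11.5 in KO-TRAMP and 1.64, 1.19 and 0 in A537T-TRAMP, and the groups overlapped at both ages. WT-TRAMP libraries 10 and 12 and KO-TRAMP libraries 17 and 18 held 91 of its 106 reads, and these are the 4 libraries with the most neuroendocrine RNA. The part of those cells in the Klk1 reads was not tested. It passed the filter of a mean of 10 in 1 of 4 comparisons, KO-TRAMP at 30 weeks, where the log2 fold change of -0.19 had an SE of 1.78. Of 14 other kallikrein genes on the list of androgen-regulated luminal genes, 1 passed the filter in each table, Klk1b24, and between 5 and 7 had no read in any library of a table.

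Hpgd (ENSMUSG00000031613.9, chromosome 8, 56294585 to 56321043, plus strand) encodes 15-hydroxyprostaglandin dehydrogenase, which inactivates prostaglandin E2. At 10 weeks its normalized count was 71.7, 120.0 and 135 in WT-TRAMP and 197, 199 and 338 in KO-TRAMP. All 3 KO-TRAMP libraries were above WT-TRAMP, with a mean of 245 ± 80.9 against 109 ± 33.3 (SD, n = 3), and the log2 fold change was 1.16 (adjusted p 0.695 by limma, SE 0.30). A537T-TRAMP had 212, 1536 and 236 against 63.5, 106 and 119. These 3 libraries were also all above WT-TRAMP, library 5 by far the most, and the log2 fold change was 2.18 (adjusted p 0.6 by limma, SE 0.73). At 30 weeks the order in the KO-TRAMP table was the opposite: WT-TRAMP held 840.4, 416 and 587 and KO-TRAMP 220.2, 309 and 269. All 3 KO-TRAMP libraries were below WT-TRAMP, with a mean of 266 ± 44.5 against 614 ± 214 (SD, n = 3) and a log2 fold change of -1.16 (adjusted p 0.274 by limma, SE 0.28). A537T-TRAMP at 30 weeks had 1215, 289 and 855 against 781, 383 and 541, with overlapping groups (log2 0.30, SE 0.52, adjusted p 0.93 by limma) and a direction that turned to -0.13 without library 13.

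Hpgd was highest in the libraries that held most seminal vesicle RNA, although the seminal vesicles were removed at dissection per the labels. Libraries 5, 13, 10 and 15, the 4 with the largest seminal vesicle share of reads, had the 4 highest Hpgd counts. In libraries with a share under 0.001% the 10-week WT-TRAMP counts were 71.7, 120.0 and 135, KO-TRAMP library 7 held 197, WT-TRAMP library 11 held 416, KO-TRAMP library 17 held 309 and A537T-TRAMP library 14 held 289. KO-TRAMP library 7 was thus above the WT-TRAMP libraries of its age, and library 17 below library 11, among libraries with few of these transcripts. Libraries 11 and 17 also differed in adipose genes (the sum of Adipoq, Plin1 and Cidec), at 323 and 42.3 normalized counts. The part of adipose tissue in Hpgd was not tested. Without libraries 8 and 9 the KO-TRAMP log2 fold change of Hpgd at 10 weeks was 0.90, and against library 11 alone it was -0.65 at 30 weeks. Each of these fits leaves 1 library in a group. In A537T-TRAMP at 10 weeks, library 4 alone gave 1.18. The part of seminal vesicle tissue in the remaining difference was not tested.

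**Figure D3:**
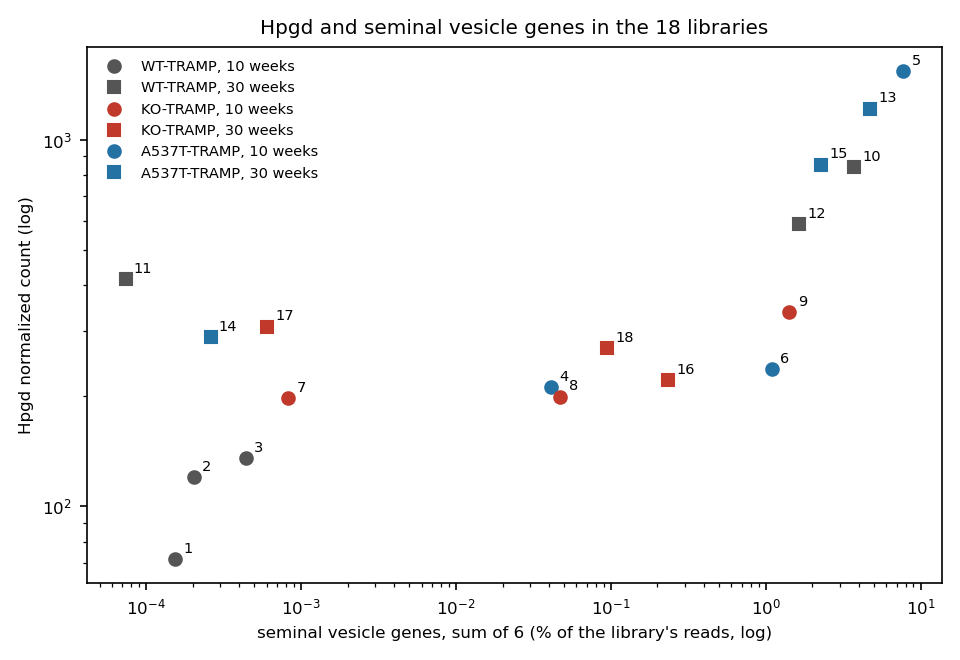
Hpgd normalized count (vertical, log axis) against the share of reads from 6 seminal vesicle genes (horizontal, percent, log axis), with 1 labelled point per library, circles for 10 weeks and squares for 30 weeks. The 4 libraries with the largest share (5, 13, 10 and 15) have the highest Hpgd counts. The 30-week KO-TRAMP libraries lie at 220.2 to 309 with shares of 0.0006% to 0.236%, all below those of these 4 libraries.

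Across the 4 comparisons, 0 of 7 genes tested passed limma at an adjusted p of 0.05 in KO-TRAMP at 10 weeks (0.0129% of all genes tested), 0 of 7 in A537T-TRAMP at 10 weeks (0.00648%), 0 of 8 in KO-TRAMP at 30 weeks (0.213%) and 0 of 7 in A537T-TRAMP at 30 weeks (0%). The filter removed Klk1 in the 3 comparisons with 7 genes. At an unadjusted limma p under 0.05 the counts were 1 (Hpgd), 2 (Hpgd and Foxa1), 2 (Hpgd and Srd5a2) and 1 (Steap4), where 6.64%, 7.89%, 13.5% and 7.21% of all genes had one. On the recovered reads, edgeR called 0 of the 8 genes in each comparison, and DESeq2 called Hpgd in KO-TRAMP at both ages (1.18, adjusted p 0.0481 at 10 weeks, and -1.22, adjusted p 0.0077 at 30 weeks). DESeq2 called 0.526% and 4.77% of all genes in these 2 comparisons, and 0 of the 8 genes in A537T-TRAMP (0.964% at 10 weeks and 1.02% at 30 weeks). The groups did not overlap for 1 of 7 genes in KO-TRAMP at 10 weeks, with 12% of all genes tested, for 3 of 7 in A537T-TRAMP at 10 weeks (13.4%), for 2 of 8 in KO-TRAMP at 30 weeks (20.2%) and for 1 of 7 in A537T-TRAMP at 30 weeks (13.4%). The median log2 fold change of the genes tested was -0.24, -0.084, -0.31 and 0.21, against medians over all genes between -0.0078 and 0.01. Without the in-between libraries 12 and 18, the KO-TRAMP log2 fold changes at 30 weeks were -0.44 for Foxa1, -0.76 for Fkbp5, 0.25 for Tmprss2, -1.04 for Srd5a2, 0.70 for Steap4, 0.16 for Acpp and -1.18 for Hpgd. Without libraries 12 and 15, those of A537T-TRAMP were -0.19 for Foxa1, 0.22 for Fkbp5, -0.028 for Tmprss2, 0.34 for Srd5a2, 0.39 for Steap4, -0.64 for Acpp and 0.12 for Hpgd, and limma called 0 of them in either. In bulk tissue, fewer luminal cells and less RNA per luminal cell cannot be told apart. A p above the threshold does not show that the lines are alike, and 3 libraries with the spread seen here leave standard errors from 0.13 to 0.73 for the 7 genes other than Klk1.

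**Figure D4:**
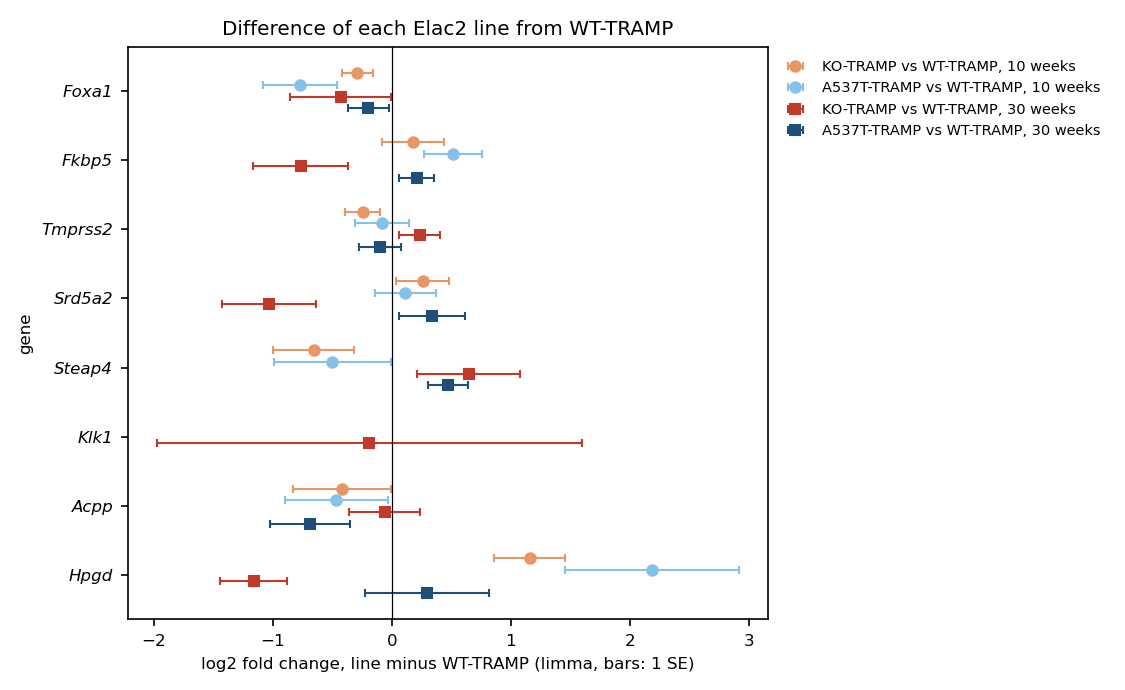
Log2 fold change of each gene in each Elac2 line minus WT-TRAMP (horizontal axis), with bars of 1 SE from limma, for the 4 comparisons; Klk1 was tested in 1 of them. Hpgd lies at 1.16 and 2.18 at 10 weeks and at -1.16 in KO-TRAMP at 30 weeks, and none of the points passed a limma adjusted p of 0.05.

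For each line, the effect at 30 weeks was set against that at 10 weeks in a test over 12 libraries. For KO-TRAMP it was -2.32 (adjusted p 0.18 by limma, SE 0.45) for Hpgd, with all 3 libraries above WT-TRAMP at 10 weeks and all 3 below at 30 weeks, and -1.29 (adjusted p 0.313 by limma, SE 0.45) for Srd5a2. The value for Steap4 had the other sign, 1.30 (adjusted p 0.385 by limma, SE 0.59), and the adjusted p-values of the other 4 genes tested ranged from 0.409 to 0.911. The test called 0 of 7 genes and 0% of 16431 genes, with 2 of the 7 and 13.1% of all genes at an unadjusted p under 0.05. Without library 16 it called 2 of the 7 and 11.8% of all genes, the 2 being Hpgd at -2.19 (limma adjusted p 0.0194) and Srd5a2 at -1.59 (limma adjusted p 0.034). Without libraries 12 and 18 it called 0 (Hpgd -2.34, limma adjusted p 0.794). Seminal vesicle transcripts took 0.0472% and 1.42% of the reads of KO-TRAMP libraries 8 and 9 at 10 weeks and 3.74% and 1.63% of those of WT-TRAMP libraries 10 and 12 at 30 weeks. Without these 4 libraries the difference for Hpgd was -1.55 (limma adjusted p 0.875). For A537T-TRAMP the test called 0 of 7 genes and 0% of 15941 genes, none of the 7 reached an unadjusted p of 0.05, and the value for Hpgd was -1.89 (adjusted p 0.721 by limma, SE 1.01).

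To set the 8 genes against the epithelium in the same library, the mean log2 level of Epcam, Krt8, Krt18, Cdh1 and Cldn7 was subtracted. That mean was between 11.8 and 12 in KO-TRAMP and between 11.4 and 11.8 in WT-TRAMP at 30 weeks. Libraries 17 and 18, which hold the neuroendocrine genes, had the 2 highest values of the 6, but the 5 genes did not move together: Krt8 was at 9142 and 6918 normalized counts in these libraries against 2946 to 3788 in WT-TRAMP, and Cdh1 at 2923 and 4774 against 5367 to 7755. Relative to it, Fkbp5 was -0.41, -2.07 and -1.34 in KO-TRAMP libraries 16 to 18 and -0.32, -0.20 and -0.23 in WT-TRAMP. Its 3 KO-TRAMP values lay below WT-TRAMP, a difference of -1.02 (exact two-sided permutation p = 0.1, the smallest that 3 against 3 libraries allow). Srd5a2 (-1.29) and Hpgd (-1.42) did not overlap either, each with an exact p = 0.1, while Foxa1 did (-0.69, exact p = 0.4) and Tmprss2 differed by -0.023 (exact p = 0.9). In this measure 3 of 8 genes did not overlap in KO-TRAMP at 30 weeks, and 2 of 7, 3 of 7 and 2 of 7 did not overlap in KO-TRAMP at 10 weeks, A537T-TRAMP at 10 weeks and A537T-TRAMP at 30 weeks. The 30-week counts were 3 in KO-TRAMP without libraries 12 and 18 and 2 in A537T-TRAMP without 12 and 15. Smaller groups fail to overlap more often by chance, so these counts do not show that the result is stable. No background share was computed for this measure.

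The rest of the androgen pathway was followed with 3 lists of 73 genes: 16 genes of the receptor, its partners and coregulators, 16 of androgen and prostaglandin metabolism, and 41 androgen-regulated luminal genes. No gene of any list passed limma in any comparison, in either direction, and edgeR called 0 in each. DESeq2 called 8 of 58 genes tested in KO-TRAMP at 30 weeks (4.77% of all genes), 1 of 57 in A537T-TRAMP at 10 weeks (0.964%) and 0 in KO-TRAMP at 10 weeks (0.526%) and A537T-TRAMP at 30 weeks (1.02%). At 10 weeks in KO-TRAMP, 2 of 16, 2 of 13 and 3 of 28 genes tested had a p under 0.05 before adjustment, against 6.64% of all genes. Cyb5b, which encodes an outer mitochondrial membrane cytochrome b5, was at 3077 ± 173 against 2201 ± 362 (log2 0.49, adjusted p 0.695 by limma), and the clock gene Per1 at 232 ± 70.5 against 365 ± 42.4 (log2 -0.69, adjusted p 0.716 by limma). The coactivator Ncoa4 was at 9997 ± 2297 against 6592 ± 2185 (log2 0.63, adjusted p 0.734 by limma) and the kallikrein Klk1b24 at 51.9 ± 12.4 against 23.6 ± 19.8 (log2 1.37, adjusted p 0.734 by limma). On the opposite side, Ncoa1 and Hsd17b10 had log2 fold changes of -0.24 and -0.18, and did not pass (limma adjusted p 0.789 and 0.853). Smooth muscle genes summed to 7861 to 12420.5 against 4390.2 to 7375 in WT-TRAMP, without overlap, and their part in these values was not tested.

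In A537T-TRAMP at 10 weeks, 0 of 16, 2 of 13 and 4 of 28 list genes had a p under 0.05 before adjustment, against 7.89% of all genes. Probasin (Pbsn), whose promoter drives the TRAMP transgene, had 1340.2 ± 209.9 against 394 ± 117 (log2 1.79, adjusted p 0.458 by limma), and its 3 A537T-TRAMP libraries, at 1143 to 1561, lay above WT-TRAMP at 288 to 520.2. The transporter gene Slc45a3 had 2888 ± 1448 against 4970.5 ± 571 (log2 -0.94, adjusted p 0.6 by limma), the prostaglandin E synthase gene Ptges 1835 ± 1205 against 662 ± 433 (log2 1.49, adjusted p 0.6 by limma) and the transcription factor gene Gata2 1198 ± 819 against 262 ± 228 (log2 2.94, adjusted p 0.6 by limma). The groups overlapped for Gata2 (365 to 2003 against 12.9 to 460) and Ptges (808 to 3162 against 260 to 1121), but not for Slc45a3. The chaperone Hsp90ab1 (-0.32) and the dehydrogenase Hsd17b10 (-0.40) had the smallest p among lower genes of their lists, each with a limma adjusted p of 0.6. Library 5 and library 6 hold over 1% seminal vesicle transcripts. Marker genes of other cell types also separated these groups: the sums in A537T-TRAMP were 4812 to 6427 against 2765 to 4241 in WT-TRAMP for fibroblasts and 147 to 275 against 71.7 to 119.7 for endothelium, beside the epithelial and smooth muscle sums given with Foxa1. The part of these tissues in the values was not tested.

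In KO-TRAMP at 30 weeks, 4 of 16, 2 of 14 and 12 of 28 list genes had a p under 0.05 before adjustment, against 13.5% of all genes. The median log2 fold change of the luminal list was -0.56, with 8 of 28 genes positive, and over all genes it was 0.01. The median was -0.28 for the receptor's partners and -0.073 for metabolism. Gata2, which opens chromatin with FOXA1, was at 399 ± 98 against 852 ± 75.1 (log2 -1.12, adjusted p 0.136 by limma), and Hsp90aa1, a chaperone of the receptor, at 7795 ± 2222 against 5050.0 ± 431 (log2 0.59, adjusted p 0.359 by limma). Msmb, which encodes the secreted beta-microseminoprotein, was at 2317 ± 732 against 4451 ± 898 (log2 -0.97, adjusted p 0.325 by limma), and Pmepa1, which encodes a membrane protein that dampens TGF-beta signalling, at 208 ± 15.4 against 103 ± 22.5 (log2 1.03, adjusted p 0.182 by limma). Hsd17b11 was at 189 ± 34.2 against 312 ± 44.6 (log2 -0.73, adjusted p 0.306 by limma). Hsd17b2 had no read in the 3 WT-TRAMP libraries and between 0 and 78 normalized counts in KO-TRAMP, and no fold is given. The same libraries 17 and 18 hold the neuroendocrine genes. All 3 KO-TRAMP libraries also held more of 5 fibroblast genes (16352 to 22315 summed normalized counts against 4231 to 4829.5) and of 4 macrophage genes (1387 to 1620.5 against 608 to 888), with none of these genes at 0, while the 5 epithelial genes summed to 25333 to 27232 against 18851 to 25477. Endothelial genes summed to 419.8 to 690.2 against 263 to 296, and basal epithelial genes to 2323 and 1630.2 in libraries 17 and 18 but 319 in library 16, against 360.3 to 394. The basal genes did not move together: in libraries 17 and 18 Krt5, Krt15 and Trp63 were above WT-TRAMP. Krt14 was below it, at 8.02 and 17.8 against 38 to 43.2. The adipose genes Adipoq, Plin1 and Cidec were lower in KO-TRAMP, with sums of 2.06 to 42.3 against 125 to 323. The part of these cells in the list and in the 8 genes was not tested. Without library 16 limma called 23 of the 58 list genes tested and 18.1% of all genes, and without libraries 12 and 18 it called 0 of 58 and 0%.

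In A537T-TRAMP at 30 weeks, 1 of 16, 2 of 13 and 3 of 28 list genes had a p under 0.05 before adjustment, against 7.21% of all genes. Of the 28 luminal genes, 21 had a positive log2 fold change, and the median of the 28 was 0.16. Msmb was at 5485 ± 259 against 4092 ± 811 (log2 0.44, adjusted p 0.666 by limma) and Herc3, a ubiquitin ligase gene, at 446 ± 61 against 652 ± 108 (log2 -0.54, adjusted p 0.616 by limma). Hsp90aa1 was at 5653 ± 348 against 4538 ± 404 (log2 0.32, adjusted p 0.646 by limma) and Hsd3b7 at 379.8 ± 18.4 against 295 ± 12.1 (log2 0.36, adjusted p 0.576 by limma). The coactivator Ncoa2 (-0.21) and Srd5a3 (-0.18) had the smallest p among lower genes of their lists, with limma adjusted p-values of 0.718 and 0.809. Fibroblast genes summed to 6650.3 to 10813 against 4028 to 4605 in WT-TRAMP. The adipose genes Adipoq, Plin1 and Cidec summed to 3.58 to 36.9 against 115 to 288. The part of either tissue in these values was not tested.

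The 8 genes did not vary as a block. Taking each library's log2 level minus the WT-TRAMP mean of its table, Fkbp5 and Srd5a2 were lowest in library 17 and Foxa1 in library 5, where Fkbp5 was above WT-TRAMP. The highest Pearson correlation between 2 of the 7 genes tested in all 4 comparisons was 0.67 for Fkbp5 and Srd5a2 over 18 libraries, and the lowest was -0.64 for Tmprss2 and Hpgd. The libraries of an age share their WT-TRAMP reference and differ in tissue makeup, so these values are descriptions only. Among 12672 other named genes tested in all 4 comparisons, those most like Foxa1 were Abhd17c (r = 0.98) and Cdk19 (0.97), and those most like Fkbp5 were Phf11c (0.94) and Rint1 (0.93). Srd5a2 was most like Tmed3 (0.93) and Yipf2 (0.91), and Steap4 most like the complement regulator gene Cfi (0.94) and Gda (0.91). Hpgd was most like Cdo1 (0.97) and Acacb (0.97). The nearest genes were less alike for Tmprss2, with Arhgap40 (0.80) and Mfsd4a (0.77), and for Acpp, with Filip1l (0.78) and Grap2 (0.78). Klk1, at 0 in several libraries, was most like Unc80 (0.87) and Pax9 (0.87).

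**Figure D5:**
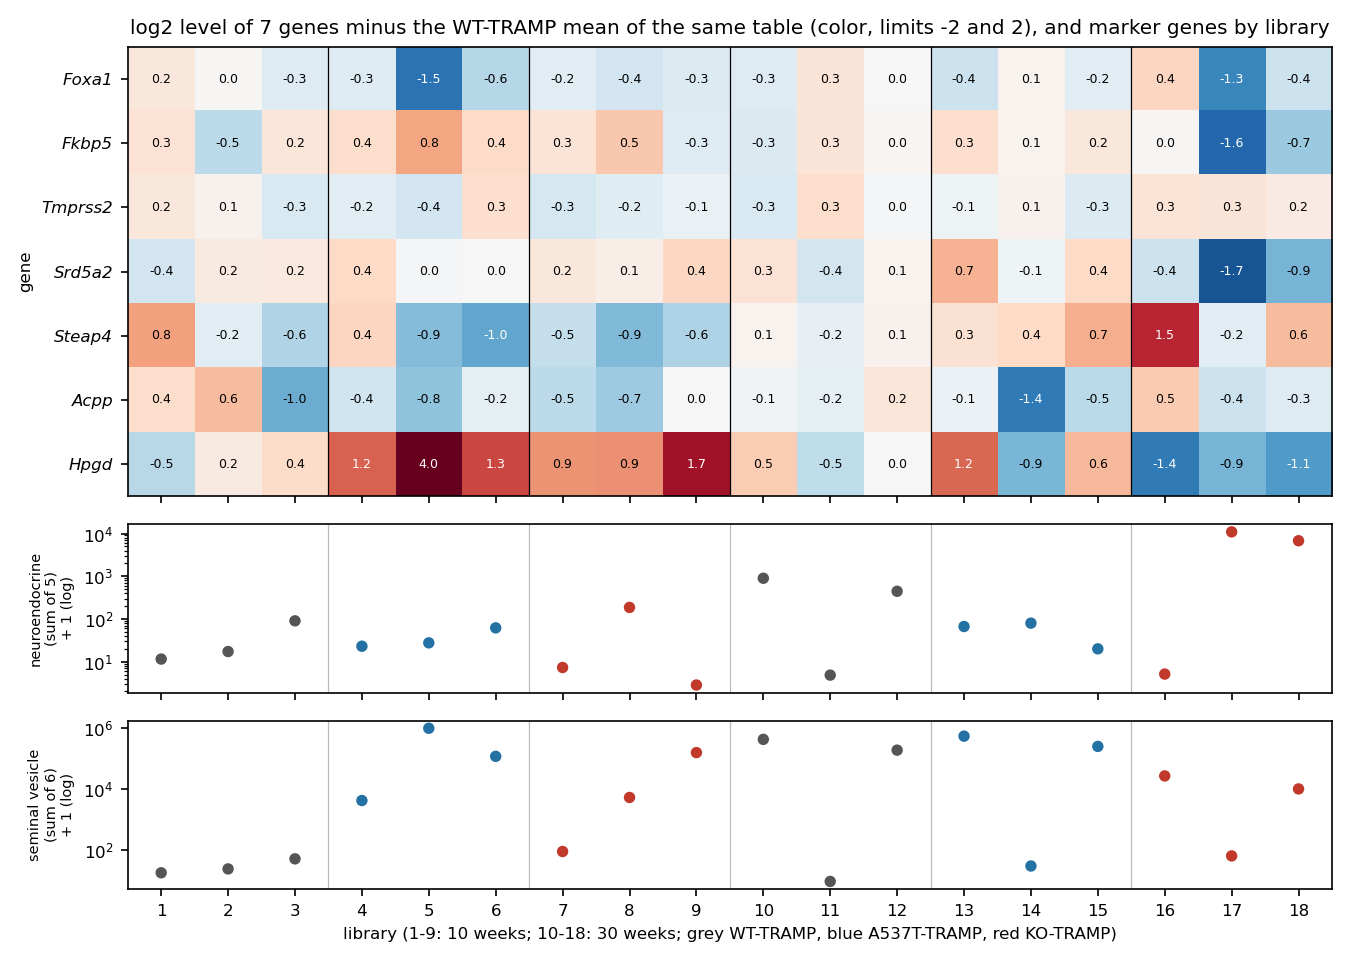
The upper panel gives the log2 level of 7 genes in each of the 18 libraries minus the WT-TRAMP mean of the same table (red higher, blue lower, value printed in each cell). The lower panels give the summed normalized counts plus 1 of 5 neuroendocrine and 6 seminal vesicle genes on log axes; libraries 17 and 18 combine the highest neuroendocrine sums with low Fkbp5 and Srd5a2, while Tmprss2 stays near 0.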

How the data were processed

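RNA-seq of 18 libraries in 6 groups of 3 was used. Per the labels and the study's methods, the authors trimmed reads with Trim Galore 0.4.1 and cutadapt 1.18, aligned them with STAR 2.7.3a to GRCm38, quantified genes with Salmon and normalized with DESeq2 1.26. They deposited 4 tables, one for each line and age, each holding a signal in which every library's read counts are divided by its own size factor. With a tolerance of 0.01, 100% of the values were whole reads once divided by the size of 1 read. Further deposited tables, which hold the comparisons made by the authors (shrunken log2 fold changes, posterior SDs and s-values), were not used. Table names give line and age, and the 3 columns that both tables of an age share were taken as WT-TRAMP. Their normalized values differ between the 2 tables (by up to 14.2% for the 7 genes other than Klk1, and their recovered reads by up to 6.43% for genes with at least 50 reads), so tests stayed within a table. Tests used limma 3.58.1 (R 4.3.3, lmFit, eBayes with trend) on log2(normalized count + 1), which understates changes of low genes, over genes with a mean of at least 10. Two-sided p-values were adjusted by Benjamini-Hochberg over all genes tested, and the threshold was 0.05. Age differences were an interaction over 12 libraries with an intercept per table. The test was checked on simulated data, drawn with the same dispersion for every gene and without differences in tissue makeup. That check does not cover a spread as wide as some groups have here. The genes and lists were chosen with earlier results of these data known. List genes were named as the one with the smallest p in each direction of each list, since none was called, and like genes as the 2 with the highest Pearson r per gene. Alternatives were a pseudocount of 5, no filter, a mean of 50, edgeR 4.0.16 and DESeq2 1.42.0 on recovered reads, CPM with TMM factors, array weights, Krt8 and Krt18 alone as the epithelial reference, and leaving out libraries. Symbols came from the supplied gene table (55107 of 55469 IDs), coordinates and exon lengths from GENCODE on GRCm38, and promoters from RefSeq on GRCm38.p6. RPKM was computed from recovered reads. One gene of the neuroendocrine marker list is not reported here and was left out of its sums. The labels number 3 replicates a group, and the study's methods describe RNA from 3 of each mouse line. The p-values measure the spread between these libraries, and whether libraries 12, 15 and 18 each hold RNA of 1 mouse was not tested.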

Additional observations from a re-analysis of the deposited data

Results flagged for a closer look

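Hpgd differed between the ages in KO-TRAMP: all 3 libraries lay above WT-TRAMP at 10 weeks and all 3 lay below it at 30 weeks. The effect at 30 weeks minus that at 10 weeks was -2.32 on the log2 scale (SE 0.45, n = 12 libraries), with an unadjusted limma p of 0.00029 and a limma adjusted p of 0.18, which did not pass. The adjusted p ranged from 0.000791 to 0.875 over the alternatives, and the value from -2.57 to -1.55. At 30 weeks the adipose genes Adipoq, Plin1 and Cidec summed to 2.06 to 42.3 in KO-TRAMP against 125 to 323 in WT-TRAMP, and their part was not tested. The reads from seminal vesicle genes made up no more than 0.000441% of any 10-week WT-TRAMP library, 0.0472% and 1.42% of KO-TRAMP libraries 8 and 9, and 3.74% and 1.63% of the 30-week WT-TRAMP libraries 10 and 12. In fits chosen after the data were seen, the value was -2.06 without libraries 8 and 9, -1.81 without 10 and 12 and -1.55 without all 4 (limma adjusted p 0.685, 0.63 and 0.875). The part of seminal vesicle tissue in the remaining difference was not tested.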

How the results depend on the processing

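Of the values of the 8 genes under the alternatives, 629 kept their direction and their side of the threshold, 19 passed it in the same direction and 31 changed sign. Causes were not tested.

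DESeq2 called 1 of the 8 genes in KO-TRAMP at 10 weeks and 1 at 30 weeks, 1 other pathway gene in A537T-TRAMP at 10 weeks and 8 in KO-TRAMP at 30 weeks. At 30 weeks array weights called 6 of the 8 genes and 49 of 58 other pathway genes in KO-TRAMP, with 10748 of all 16900 genes tested. In A537T-TRAMP they called 2 of 7 and 17 of 57 others, with 3388 of 16261. For the age difference they called 5 of 7 in KO-TRAMP (5188 of 16431 genes) and 1 of 7 in A537T-TRAMP (1645 of 15941). The 30-week KO-TRAMP fit gave library 18 a weight of 170.3, against 0.097 to 2.15 for the other 5 libraries of its table. Over all genes, limma called 2, 1, 36 and 0 in the 4 comparisons (KO-TRAMP and A537T-TRAMP at 10 weeks, then at 30 weeks), edgeR 0, 0, 15 and 0, DESeq2 81, 148, 805 and 165, and array weights 2, 4, 10748 and 3388. A minimum mean of 50 gave 0, 0, 40 and 0. Array weights called 5188 and 1645 genes for the age differences of KO-TRAMP and A537T-TRAMP.

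Leaving out 1 library at a time, 1 to 9, 0 to 65, 0 to 3064 and 0 to 145 genes were called in the same order. In KO-TRAMP at 30 weeks 0 to 1 of the 8 genes and 0 to 23 other pathway genes were called, and 0 to 2 of the 8 for the age difference, each highest without library 16. Relative to epithelial genes, 2 to 6 genes did not overlap in KO-TRAMP at 10 weeks (highest without library 3), 3 to 5 in A537T-TRAMP at 10 weeks (without 3 or 4) and 3 to 5 in KO-TRAMP at 30 weeks (without 16). Smaller groups fail to overlap more often by chance, so these counts cannot be set against those of the full groups. The log2 fold change changed sign within -0.083 to 0.40 for Fkbp5 in KO-TRAMP at 10 weeks, within -0.30 to 0.066 for Tmprss2 and -0.075 to 0.21 for Srd5a2 in A537T-TRAMP at 10 weeks, within -0.86 to 0.0044 for Foxa1, -1.70 to 1.23 for Klk1 and -0.35 to 0.13 for Acpp in KO-TRAMP at 30 weeks, and within -0.25 to 0.074 for Tmprss2 and -0.13 to 0.90 for Hpgd in A537T-TRAMP at 30 weeks. The age difference did so within -0.57 to 0.29 for Foxa1 in KO-TRAMP, and within -0.16 to 0.20 for Tmprss2 and -0.54 to 0.28 for Acpp in A537T-TRAMP.

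Array weights turned Tmprss2 to 0.16 and Srd5a2 to -0.014 in A537T-TRAMP at 10 weeks. The sets of libraries left out were chosen after the data were seen. Steap4 turned to 0.42 in A537T-TRAMP at 10 weeks without libraries 5 and 6. In KO-TRAMP at 30 weeks, Foxa1 turned to 0.43, Fkbp5 to 0.017 and Acpp to 0.52 without 17 and 18, Acpp to 0.16 without 12 and 18, and Tmprss2 to -0.11 and Acpp to 0.12 without 10 and 12. The A537T-TRAMP age difference of Tmprss2 became 0.056 without 12 and 15. A library left alone in its group is assumed to vary like the others.

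No paired analysis was possible because the table columns carry no replicate number. Depth limits Klk1 most, which was at 0 in several libraries. With 3 libraries a group, a permutation test cannot go below 0.1.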
